A study of Mus musculus with 8 samples.

Results

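The genes described here are the ligands and receptors of axon guidance on the array: the semaphorins with their neuropilin and plexin receptors, the ephrins with the Eph receptors, the Slits with the Robo receptors, and netrins 1, 3 and 4 with Dcc and the Unc5 receptors. The rule uses gene symbols alone and no measured value. They number 68 of the 34797 gene names on the array, 34 of them ligands and 34 receptors, and 67 had a probe that passed the filters on all 8 arrays. The exception was Unc5d.

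Olfactory bulb RNA of male C57BL/6J mice, 56 days old, came from 4 groups. C-C mice were reared in a standard cage and breathed clean air, and C-DE mice were reared the same way and inhaled diesel exhaust (DE) at 90 µg/m3. EE-C and EE-DE mice were reared in an enriched cage, larger and furnished with a running wheel and movable objects, and breathed clean air or DE, respectively. All groups stayed in exposure chambers 8 h a day for 28 days, from postnatal day 28 to 55, and kept their rearing condition there. There were 7 C-C mice, 7 C-DE mice, 8 EE-C mice and 9 EE-DE mice, whose RNA was pooled by group and split over 2 one-colour Agilent arrays. The methods give fewer rearing cages than mice, each with 1 dam and her pups, so the pools of one housing could hold littermates. A group is 1 pool, its 2 arrays show technical spread only, and no comparison could be tested.

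Growing axons carry receptors that read attractive and repulsive ligands in the surrounding tissue. Secreted semaphorins act through neuropilins paired with plexins, membrane semaphorins mostly act on plexins directly, ephrins are held on the cell surface and signal with Eph receptors on the cell they touch, Slits repel through Robo receptors, and netrins attract through Dcc and repel through Unc5 receptors. In the olfactory system these families are known for sorting the axons of olfactory sensory neurons onto the glomeruli of the bulb, for guiding the axons of mitral cells into the lateral olfactory tract, and for steering neuroblasts that migrate to the bulb throughout life. The question asked of these genes was whether inhaled DE, the rearing environment, or both together altered their transcript levels in the bulb.

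Each value is the processed signal on the log2 scale, less the 75th percentile of its array, so that 0 is the signal of that percentile, and values of different genes are not set against each other. A difference is the mean of 2 arrays minus the mean of 2 arrays, followed where it is informative by its range over the 4 ways to pair the arrays of the 2 pools. A gene is represented by its brightest passing probe and is called changed at 1.5-fold, which is 0.585 on the log2 scale. In addition, 2 pools are said not to overlap where both arrays of one lie above both of the other. Probe positions follow the mm9 annotation of the array. Since fewer cells of a type and less RNA per cell cannot be told apart in whole bulb, no value is assigned to a cell type.

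None of the 67 measured ligands and receptors changed 1.5-fold in any of the 5 comparisons. Over all 16484 measured genes, the share past that threshold in either direction was 0.649% in C-DE/C-C, 0.952% with enrichment (EE-DE/EE-C), 0.928% between EE-DE and C-C, 0.831% in EE-C/C-C and 0.740% in EE-DE/C-DE, so a count of 0 among 67 members is near the background in each. The largest difference of a member was that of Robo3 in EE-DE/C-DE, −0.52. In C-DE/C-C the members ranged from −0.47 (Epha1) to 0.39 (Robo3), in EE-DE/EE-C from −0.29 (Sema3b) to 0.28 (Epha10), in EE-DE/C-C from −0.35 (Dcc) to 0.37 (Efna3), and in EE-C/C-C from −0.44 (Dcc) to 0.36 (Sema3b). The Dcc values come from a probe whose placement is doubtful, as described with the netrin receptors, and without it the lower ends were −0.20 (Efna4) in EE-DE/C-C and −0.34 (Epha1) in EE-C/C-C. Single arrays mattered for 2 members. Without the second EE-C array Epha10, an Eph receptor, differed by 0.60 in EE-DE/EE-C. Without the second EE-DE array Robo3 differed by −0.77 in EE-DE/C-DE, and without the first by −0.28. The values of 0.60 and −0.77 pass 1.5-fold.

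The centre of the list stayed near that of the array. The median difference of the members was −0.021 in C-DE/C-C, where that of all genes was −0.0083. It was −0.0043 against −0.0083 in EE-DE/EE-C, −0.024 against −0.0049 in EE-DE/C-C, −0.02 against 0.0093 in EE-C/C-C, and 0.0003 against 0.002 in EE-DE/C-DE. The median size of a member's difference, without its sign, was 0.054 in C-DE/C-C and 0.051 with enrichment (EE-DE/EE-C), and over all genes it was 0.057 and 0.059. For single arrays, which vary more than means of 2, the median gap between duplicates over the members was 0.087 in the C-C pool, 0.067 in the C-DE pool, 0.086 in the EE-C pool and 0.067 in the EE-DE pool.

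**Figure D1:**
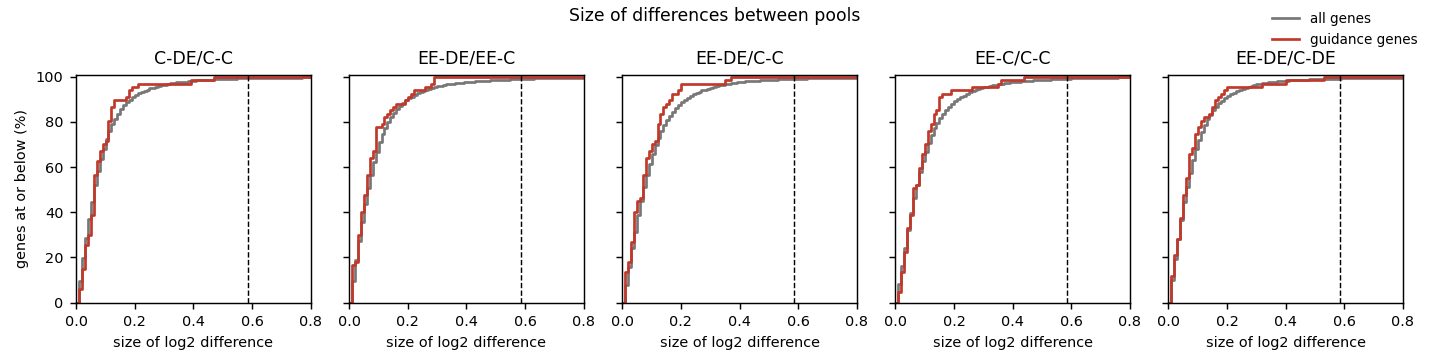
Cumulative share of genes (y axis, percent) whose log2 difference has at most the size on the x axis, for the 67 measured guidance genes and for all 16484 measured genes, one panel a comparison; the dashed line is 1.5-fold. The guidance gene curve reaches 100% before the dashed line in every panel and runs close to that of all genes below it.

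Counts of members without overlap between pools were also read against all genes. In C-DE/C-C, 6 members lay above (8.96%, background 18.2%) and 15 below (22.4%, background 23.0%). In EE-DE/EE-C, 11 lay above (16.4%, background 14.4%) and 13 below (19.4%, background 20.3%). In EE-DE/C-C the counts were 6 above (8.96%, background 22.7%) and 19 below (28.4%, background 24.9%). For the rearing environment, EE-C/C-C had 6 above (8.96%, background 21.0%) and 13 below (19.4%, background 17.1%), and EE-DE/C-DE had 11 above (16.4%, background 22.0%) and 16 below (23.9%, background 20.5%). Members above the C-C arrays thus made up less than the background share in all 3 comparisons with C-C, which share the same C-C arrays, while members below were near it. These counts include Dcc on a probe of doubtful placement. On its other passing probe Dcc overlapped throughout, and the counts became 10 above in EE-DE/EE-C, and 18, 12 and 15 below in EE-DE/C-C, EE-C/C-C and EE-DE/C-DE.

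Both DE comparisons could be read together because they share no array. Efna3, Epha6 and Sema4f lay above in both (4.48%, background 3.77%), Efna5, Efnb3, Sema4a and Unc5a lay below in both (5.97%, background 6.50%), and Epha1 alone went opposite ways (1.49%, background 4.22%). For rearing, read in clean air and in DE, Efna3 alone lay above in both (1.49%, background 7.19%), Dcc, Epha4, Plxna3, Plxnb1, Sema4c and Sema4f lay below in both (8.96%, background 5.78%; 5 members without the doubtful Dcc probe), and Epha1 and Unc5b went opposite ways (2.99%, background 3.67%). Each of these counts is of 1 to 6 genes, and the differences behind most of them were below 0.2 in size.

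**Figure D2:**
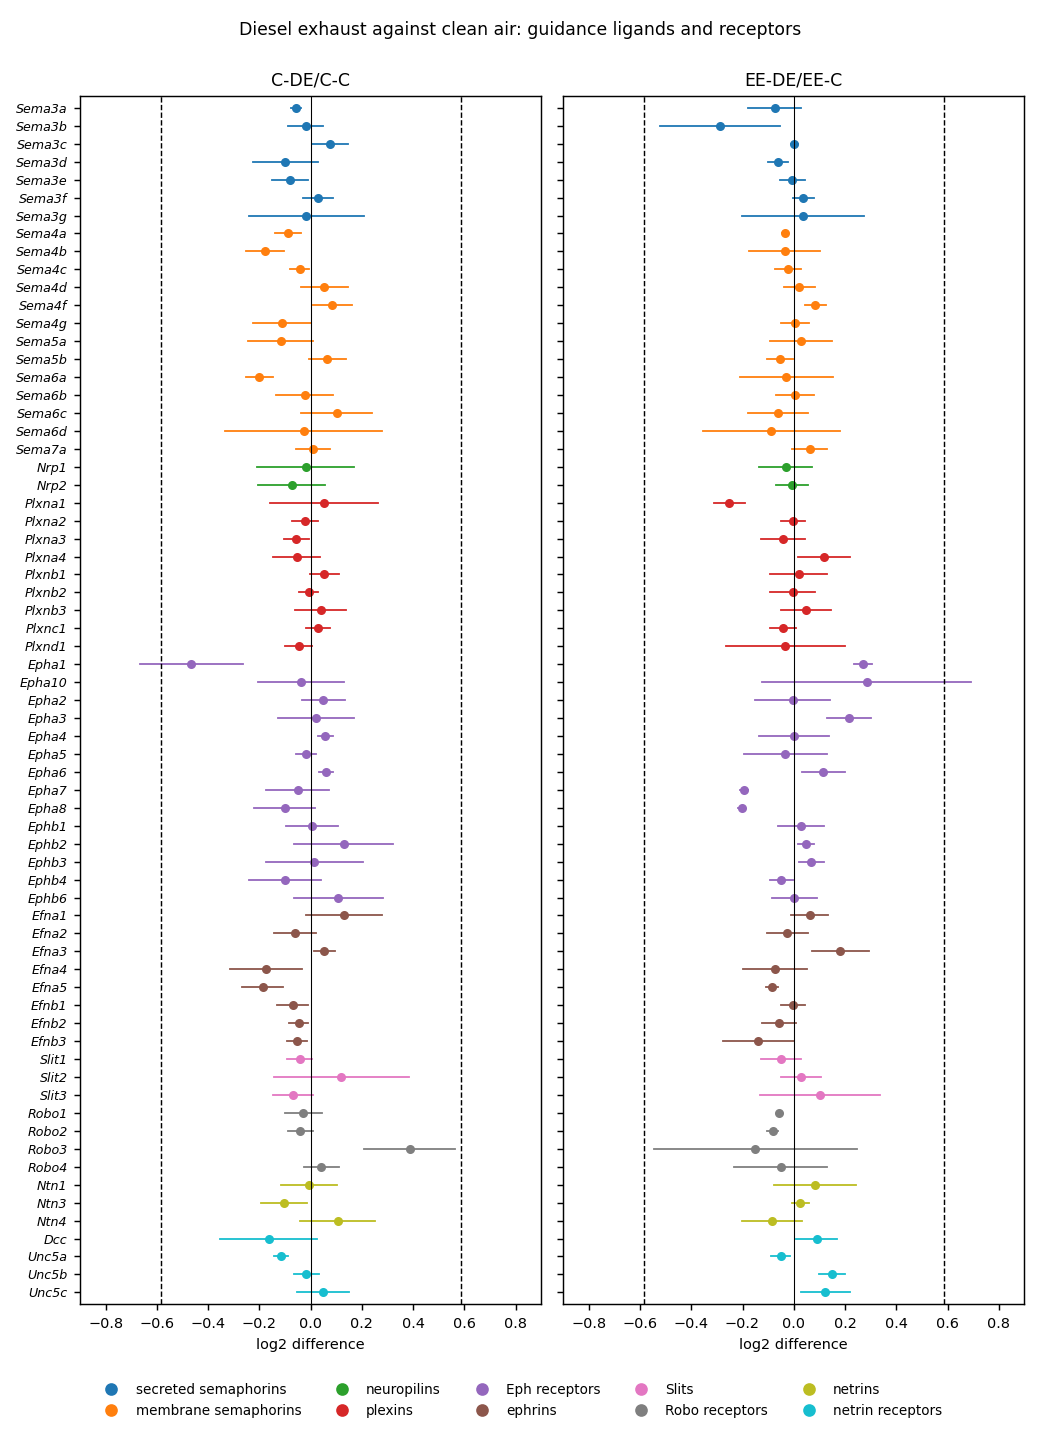
Log2 difference of DE-exposed against clean-air pools (x axis) for each of the 67 measured guidance genes (y axis), in standard cages on the left and with enrichment on the right; points are differences of 2-array means, bars span the 4 array pairings, colours mark the family and dashed lines 1.5-fold. No point passes a dashed line; Epha1 and Robo3 lie farthest out on the left, and the longest bar on the right, that of Epha10, comes from the 2 EE-C arrays.

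Of the ligands, the 7 secreted semaphorins were all measured. Their differences ranged from −0.099 to 0.075 in C-DE/C-C and from −0.29 to 0.038 with enrichment (EE-DE/EE-C). Sema3a, a repellent of sensory axons, had values of 0.87 and 0.85 in C-C, 0.79 and 0.81 in C-DE, 0.82 and 0.97 in EE-C, and 0.79 and 0.85 in EE-DE. Both C-DE arrays lay below both C-C arrays by a small margin, −0.059 in C-DE/C-C (pairings −0.079 to −0.04), while the enriched pools overlapped. A second, dimmer probe of the gene differed by 0.12 in C-DE/C-C, in the other direction. Sema3f, the secreted ligand of neuropilin 2, had values of 2.11 and 2.04 in C-C, 2.13 and 2.08 in C-DE, 2.07 and 2.01 in EE-C, and 2.06 and 2.09 in EE-DE. Its 4 pools overlapped in every comparison, with differences of 0.028 in C-DE/C-C and 0.038 with enrichment (EE-DE/EE-C).

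Sema3b, another secreted semaphorin, had the widest differences of this family, with values of −0.74 and −0.87 in C-C, −0.82 and −0.82 in C-DE, −0.39 and −0.49 in EE-C, and −0.54 and −0.92 in EE-DE. The EE-C arrays were the highest of the 8, so that it was higher with enrichment in clean air, 0.36 in EE-C/C-C (pairings 0.24 to 0.47), and lower with DE in the enriched pools, −0.29 in EE-DE/EE-C (pairings −0.52 to −0.053). The duplicates of EE-DE were 0.37 apart, so that the latter was −0.47 without the first EE-DE array and −0.10 without the second, and in C-DE/C-C the difference was −0.019. Sema3c, a further secreted semaphorin, had values of 2.49 and 2.58 in C-C, 2.63 and 2.59 in C-DE, 2.56 and 2.56 in EE-C, and 2.55 and 2.58 in EE-DE, with a difference of 0.075 in C-DE/C-C (pairings 0.0044 to 0.15). Its second passing probe differed by 0.011 there, with overlap.

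The 13 membrane semaphorins, which signal on contact or after being shed, ranged from −0.20 to 0.10 in C-DE/C-C and from −0.087 to 0.083 with enrichment (EE-DE/EE-C). Sema4f, found at synapses, had values of −0.62 and −0.53 in C-C, −0.46 and −0.52 in C-DE, −0.64 and −0.66 in EE-C, and −0.54 and −0.60 in EE-DE. The exposed pool was the higher one in both housings, with differences of 0.085 (pairings 0.008 to 0.16; 0.0049 with the normexp background correction) and 0.083, and the enriched pool the lower one in both air treatments, with −0.077 and −0.079. Sema4a, also a plexin ligand, had values of 2.51 and 2.52 in C-C, 2.38 and 2.48 in C-DE, 2.43 and 2.42 in EE-C, and 2.40 and 2.38 in EE-DE. Its exposed pool was the lower one in both housings, with differences of −0.088 and −0.036. Sema6a, a ligand of plexins A2 and A4, had values of 1.11 and 1.08 in C-C, 0.86 and 0.93 in C-DE, 0.80 and 1.12 in EE-C, and 0.91 and 0.96 in EE-DE. C-DE lay below C-C, −0.20 in C-DE/C-C (pairings −0.25 to −0.15), and the enriched pools overlapped, with −0.029 in EE-DE/EE-C (pairings −0.21 to 0.15).

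Among the receptors of the semaphorins, both neuropilins were measured. Nrp1, which binds Sema3a, had values of −1.53 and −1.29 in C-C, −1.50 and −1.36 in C-DE, −1.50 and −1.59 in EE-C, and −1.63 and −1.52 in EE-DE. Its pools overlapped in both DE comparisons, and EE-DE lay below C-DE, −0.15 in EE-DE/C-DE (pairings −0.28 to −0.023). Nrp2, which binds Sema3f, had values of 1.15 and 1.37 in C-C, 1.21 and 1.16 in C-DE, 1.27 and 1.33 in EE-C, and 1.26 and 1.33 in EE-DE on its brightest probe, with −0.074 in C-DE/C-C and −0.008 with enrichment (EE-DE/EE-C). A second probe, designed to another transcript of the gene, gave −1.04 and −1.15 in C-C, −1.37 and −1.49 in C-DE, −1.35 and −0.66 in EE-C, and −1.34 and −1.16 in EE-DE. On it C-DE lay below C-C, −0.33 in C-DE/C-C (pairings −0.45 to −0.22), and one EE-C array stood above all others. The start of both probes, 30 of their 60 bases, is shown because they carry accessions of different transcripts and differ in C-DE/C-C. Which transcripts each probe reads was not determined. No bases are marked in capitals.
Nrp2, accession NM_001077403, chr1:62865129-62865188, plus strand: tgagccagatcacgggaactcgagagcttt
Nrp2, accession NM_001077406, chr1:62843298-62843357, plus strand: ggtttctgttggctgtcattgtcatctcca

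The 9 plexins, the signalling receptors, had a median difference of −0.0084 in C-DE/C-C and −0.0043 with enrichment (EE-DE/EE-C). Plxna1, a partner of the neuropilins, had values of −1.17 and −1.43 in C-C, −1.17 and −1.33 in C-DE, −1.14 and −1.21 in EE-C, and −1.45 and −1.40 in EE-DE. Both EE-DE arrays were below both EE-C arrays, −0.25 in EE-DE/EE-C (pairings −0.31 to −0.19), while the C-DE and C-C arrays interleaved, 0.052 in C-DE/C-C (pairings −0.16 to 0.26). Plxna3, the plexin that serves Sema3f signalling with Nrp2, had values of 1.11 and 1.17 in C-C, 1.06 and 1.10 in C-DE, 0.99 and 1.08 in EE-C, and 0.95 and 1.03 in EE-DE. The C-C arrays were the highest of its 8, and the difference from C-C was −0.056 in the C-DE pool (pairings −0.10 to −0.0073), −0.10 in the EE-C pool and −0.14 in the EE-DE pool, all against the same arrays. Over the alternative settings the difference in C-DE/C-C ranged from −0.086 to −0.0055. Plxnb1, a receptor of Sema4d, had values of 0.15 and 0.20 in C-C, 0.20 and 0.26 in C-DE, 0.039 and −0.0035 in EE-C, and 0.13 and −0.052 in EE-DE. It was lower with enrichment in clean air, −0.16 in EE-C/C-C (pairings −0.20 to −0.11), and in DE, −0.19 in EE-DE/C-DE (pairings −0.31 to −0.071). Read as ligand and receptors, Sema3f, Nrp2 and Plxna3 differed by 0.028, −0.074 and −0.056 in C-DE/C-C.

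The 8 ephrins ranged from −0.19 to 0.13 in C-DE/C-C, where 1 lay above (background 18.2%) and 5 below (background 23.0%) without overlap, and from −0.14 to 0.18 in EE-DE/EE-C, where 1 lay above (background 14.4%) and 2 below (background 20.3%). Among the 5 was Efnb2, at −0.047, whose other passing probe lay above without overlap, 0.20 in C-DE/C-C (pairings 0.014 to 0.38). Efna5, an ephrin that repels axons bearing EphA receptors, had values of 1.58 and 1.49 in C-C, 1.31 and 1.38 in C-DE, 1.42 and 1.45 in EE-C, and 1.36 and 1.34 in EE-DE. The C-C arrays were the highest, and DE was the lower side in both housings, −0.19 in C-DE/C-C (pairings −0.27 to −0.11) and −0.084 in EE-DE/EE-C (pairings −0.11 to −0.06). Over the alternative settings these ranged from −0.24 to −0.14 and from −0.17 to −0.068. Efnb1, a transmembrane ephrin, had values of 2.15 and 2.07 in C-C, 2.06 and 2.02 in C-DE, 2.08 and 2.07 in EE-C, and 2.11 and 2.03 in EE-DE, with −0.07 in C-DE/C-C (pairings −0.13 to −0.0088) and −0.003 in EE-DE/EE-C (pairings −0.05 to 0.044). Efna4 had values of −3.30 and −3.55 in C-C, −3.61 and −3.58 in C-DE, −3.47 and −3.63 in EE-C, and −3.58 and −3.67 in EE-DE. Both exposed pools lay below C-C, C-DE at −0.17 (pairings −0.31 to −0.034) and EE-DE at −0.20 (pairings −0.37 to −0.029). Much of both differences came from the first C-C array, which lay 0.25 above the second. With the normexp background correction the difference in EE-DE/C-C was 0.0095.

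Efna3, an ephrin carried by olfactory sensory axons, was the member that stood on one side in all 5 comparisons. Its brightest probe gave −1.36 and −1.42 in C-C, −1.33 and −1.35 in C-DE, −1.26 and −1.15 in EE-C, and −1.08 and −0.97 in EE-DE. The arrays ordered by pool, with C-C lowest, then C-DE, EE-C and EE-DE, and no neighbouring pools overlapped, although the nearest arrays of each 2 neighbouring pools were closer together than the EE-C duplicates. The differences were 0.054 in C-DE/C-C (pairings 0.014 to 0.093), 0.18 in EE-DE/EE-C (pairings 0.071 to 0.29), 0.37 in EE-DE/C-C (pairings 0.28 to 0.45), 0.19 in EE-C/C-C (pairings 0.10 to 0.27) and 0.31 in EE-DE/C-DE (pairings 0.25 to 0.38). A second passing probe with the same accession gave −2.53 and −2.38 in C-C, −2.51 and −2.29 in C-DE, −2.35 and −2.34 in EE-C, and −2.57 and −2.31 in EE-DE. On this probe the order was not found: the differences were 0.055 in C-DE/C-C, −0.092 with enrichment (EE-DE/EE-C), and 0.017 between EE-DE and C-C, and the pools overlapped in each of these. In EE-C/C-C this probe also lay above, 0.11 (pairings 0.03 to 0.19). Of 12 olfactory sensory neuron markers, 10 also lay above without overlap in EE-DE/C-DE (background 22.0%) and 5 in EE-DE/EE-C (background 14.4%). In C-DE/C-C, however, 1 lay above (background 18.2%) and 7 below (background 23.0%). EE-DE/C-C had 1 above (background 22.7%) and 1 below (background 24.9%). EE-C/C-C also had 1 above (background 21.0%) and 1 below (background 17.1%). The part of these markers in the Efna3 values was not tested. The starts of both probes are given because the ordering rests on the first alone.
Efna3, brighter probe, accession NM_010108, chr3:89118981-89119040, minus strand: aagaggcaaatatgccccagagagaacaaa
Efna3, second probe, accession NM_010108, chr3:89120386-89120445, minus strand: cgttacagcgccttctcgctgggctatgaa

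The 14 Eph receptors, receptor tyrosine kinases of the ephrins, ranged from −0.47 to 0.13 in C-DE/C-C, with 2 above (background 18.2%) and 1 below (background 23.0%), and from −0.20 to 0.28 in EE-DE/EE-C, with 5 above (background 14.4%) and 3 below (background 20.3%). Among these 3 was Epha7, at −0.19. Its second passing probe lay above without overlap, 0.071 in EE-DE/EE-C (pairings 0.054 to 0.087), and the pools overlapped on its remaining passing probe. Epha5, a receptor of ephrin-A ligands, had values of 2.95 and 2.97 in C-C, 2.98 and 2.91 in C-DE, 3.07 and 2.89 in EE-C, and 2.88 and 3.02 in EE-DE, and its pools overlapped in every comparison. Ephb2, a receptor of ephrin-B ligands, had values of −1.39 and −1.51 in C-C, −1.45 and −1.19 in C-DE, −1.28 and −1.34 in EE-C, and −1.26 and −1.26 in EE-DE. It was higher in EE-DE than in C-C, 0.19 in EE-DE/C-C (pairings 0.13 to 0.26), and in EE-C than in C-C, 0.14 in EE-C/C-C (pairings 0.052 to 0.24), and differed by 0.13 with overlap in C-DE/C-C. Epha3, another EphA receptor, had values of −0.38 and −0.31 in C-C, −0.44 and −0.21 in C-DE, −0.48 and −0.31 in EE-C, and −0.18 and −0.18 in EE-DE. EE-DE held its highest arrays, 0.21 in EE-DE/EE-C (pairings 0.13 to 0.30), while C-DE and C-C overlapped, 0.021 in C-DE/C-C (pairings −0.13 to 0.17). Epha8 had values of −1.17 and −1.30 in C-C, −1.28 and −1.39 in C-DE, −1.09 and −1.09 in EE-C, and −1.28 and −1.31 in EE-DE, lower with DE in the enriched pools, −0.20 in EE-DE/EE-C (pairings −0.22 to −0.19).

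Epha1, an EphA receptor best known from epithelia, was the only member whose DE difference had opposite directions in the 2 housings without overlap. Its values were −3.78 and −3.96 in C-C, −4.45 and −4.22 in C-DE, −4.21 and −4.22 in EE-C, and −3.98 and −3.91 in EE-DE. C-C and EE-DE were the high pools, and C-DE and EE-C the low ones. The difference was −0.47 in C-DE/C-C (pairings −0.67 to −0.26) and 0.27 in EE-DE/EE-C (pairings 0.23 to 0.31), and it was −0.34 in EE-C/C-C (pairings −0.44 to −0.25) and 0.39 in EE-DE/C-DE (pairings 0.25 to 0.54) for rearing. The signal was dim, with processed intensities of 47.5 and 45.3 in C-C, 29.5 and 35.4 in C-DE, 35.5 and 37.4 in EE-C, and 45.5 and 44.9 in EE-DE against a median local background of 21 to 29 units on the arrays. Its only probe begins as follows, shown because a gene this dim rests on it alone.
Epha1, accession NM_023580, chr6:42308583-42308642, minus strand: tcaatcagaactctgcctttgaaccaagga

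Markers of the olfactory mucosa's supporting cells and glands had the same sign as Epha1 in 4 of the 5 comparisons, the median of their differences being −1.21 in C-DE/C-C, 0.67 with enrichment (EE-DE/EE-C), −0.32 in EE-C/C-C and 1.60 in EE-DE/C-DE. In EE-DE/C-C their median was 0.37, while Epha1 differed by −0.072 with overlap. In EE-DE/EE-C and EE-C/C-C the pools overlapped for 11 and 12 of these 12 markers, whose summed signal on the EE-C duplicates was 5.62 and 15.6. Their part in the Epha1 values was not tested. Without any one of the 4 arrays compared, the Epha1 difference kept its sign in both DE comparisons. With the normexp background correction it was −0.15 in C-DE/C-C, −0.12 in EE-C/C-C and 0.25 in EE-DE/C-DE, smaller than the values without that correction.

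**Figure D3:**
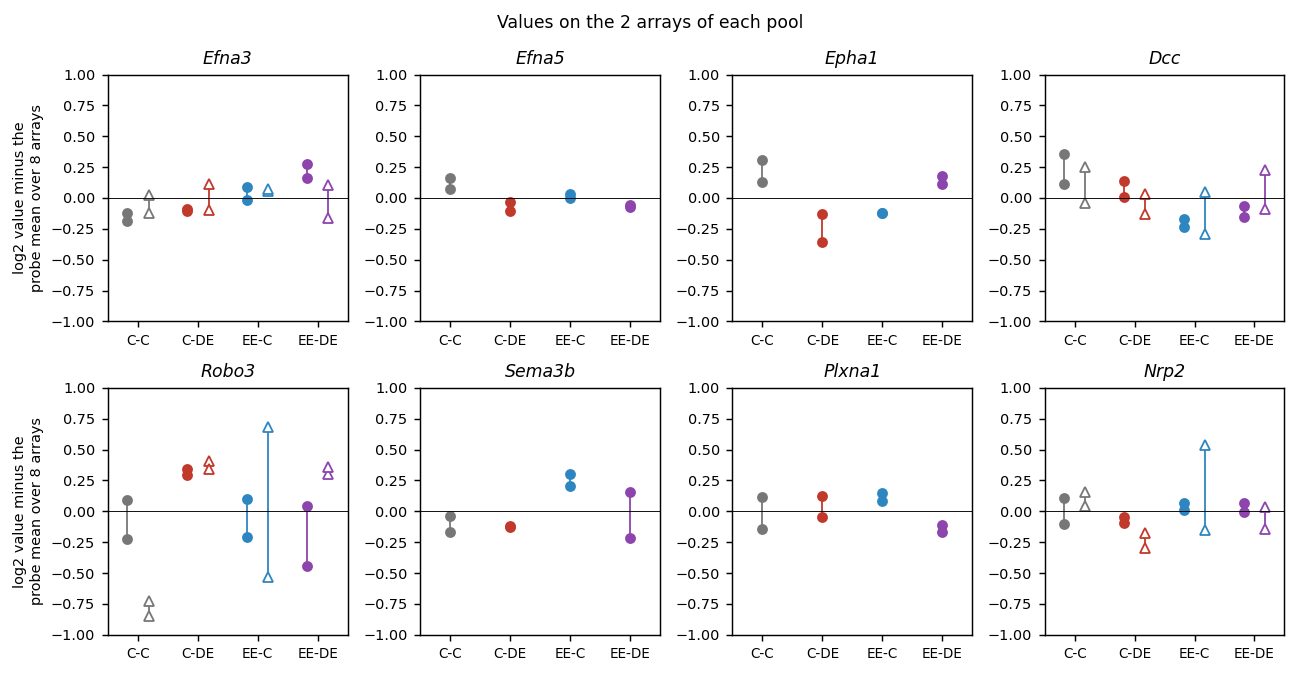
Values of 8 guidance genes on the 2 arrays of each pool, as log2 value minus the probe's mean over the 8 arrays (y axis, the same in every panel), by pool (x axis). Filled circles are the brightest passing probe, open triangles a second probe, and a line joins the duplicates of a pool; Efna3 climbs by pool on its brightest probe only, Epha1 is high in C-C and EE-DE, and the EE-DE pool lies on average below the mean on one Robo3 probe and above it on the other.

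Of the 3 Slits, Slit1 had values of 0.26 and 0.24 in C-C, 0.25 and 0.16 in C-DE, 0.35 and 0.23 in EE-C, and 0.26 and 0.22 in EE-DE, and its pools overlapped in every comparison. Slit2, like Slit1 a repellent of olfactory axons and of migrating neuroblasts, had values of −2.36 and −2.72 in C-C, −2.50 and −2.34 in C-DE, −2.39 and −2.51 in EE-C, and −2.44 and −2.40 in EE-DE. Its differences of 0.12 in C-DE/C-C and 0.027 with enrichment (EE-DE/EE-C) lay within the gap of 0.36 between its C-C duplicates. Robo1 had values of 0.85 and 0.90 in C-C, 0.89 and 0.80 in C-DE, 0.87 and 0.87 in EE-C, and 0.81 and 0.82 in EE-DE, and Robo2, which positions sensory axons along the dorsal and ventral axis of the bulb, had values of 2.09 and 2.19 in C-C, 2.10 and 2.10 in C-DE, 2.19 and 2.15 in EE-C, and 2.09 and 2.09 in EE-DE. Both EE-DE arrays were lower than the EE-C arrays by a small margin, −0.059 in EE-DE/EE-C (pairings −0.065 to −0.053) for Robo1 and −0.083 in EE-DE/EE-C (pairings −0.10 to −0.061) for Robo2. In C-DE/C-C both overlapped, with −0.03 and −0.04. The other passing probes of Robo2 overlapped between the enriched pools, with −0.044 and 0.03, and one of them lay lower in C-DE than in C-C, −0.11 (pairings −0.19 to −0.036).

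Robo3, the divergent Robo receptor that regulates the response to Slits at the midline, gave different answers on its 2 probes, although both lay above without overlap in C-DE/C-C. The probe of the RefSeq transcript had values of −3.23 and −3.54 in C-C, −2.98 and −3.03 in C-DE, −3.22 and −3.53 in EE-C, and −3.77 and −3.28 in EE-DE. C-DE held the highest arrays, 0.39 in C-DE/C-C (pairings 0.21 to 0.56) and −0.52 in EE-DE/C-DE (pairings −0.79 to −0.26), and the EE-DE duplicates were 0.49 apart. The latter difference was −0.30 with the normexp background correction, and the former 0.23 without the second C-C array. The other probe carries a transcript identifier of Ensembl and therefore did not meet the accession filter, although it was well above background on all 8 arrays. It gave −5.37 and −5.25 in C-C, −4.12 and −4.19 in C-DE, −5.06 and −3.84 in EE-C, and −4.22 and −4.17 in EE-DE. On it the C-C arrays were the lowest, and it passed 1.5-fold in 3 comparisons, 1.16 in C-DE/C-C (pairings 1.06 to 1.25), 1.12 in EE-DE/C-C (pairings 1.03 to 1.21) and 0.86 in EE-C/C-C (pairings 0.19 to 1.53). The EE-C duplicates of this probe were 1.21 apart. Its intensities were 15.7 and 18.5 in C-C, 37.0 and 36.3 in C-DE, 19.7 and 48.4 in EE-C, and 38.3 and 37.5 in EE-DE, of the same order as the median local background of 21 to 29 units, which had already been subtracted. In EE-DE/C-C the RefSeq probe gave −0.14 with overlap (pairings −0.54 to 0.26), so that the probes differed in sign there. The RefSeq probe was dim too, with intensities of 52.5 to 81.7. The starts of both probes are printed because whether Robo3 passed 1.5-fold against C-C rests on which of them is read.
Robo3, accession NM_001164767, chr9:37224357-37224416, minus strand: tctaccgctggtagcaattcttctaggggt
Robo3, transcript ENSMUST00000081943, chr9:37224780-37224839, minus strand: gattcatgcatctggtcaacattgaaattg

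The 3 netrins and 4 of their 5 receptors were measured. Ntn1, the netrin that attracts axons through Dcc, had values of −1.39 and −1.35 in C-C, −1.46 and −1.29 in C-DE, −1.36 and −1.45 in EE-C, and −1.21 and −1.44 in EE-DE, and its pools overlapped in every comparison. Unc5c, a repulsive netrin receptor, had values of −0.95 and −0.99 in C-C, −0.84 and −1.0 in C-DE, −1.02 and −0.96 in EE-C, and −0.80 and −0.93 in EE-DE. It was higher with DE in the enriched pools, 0.12 in EE-DE/EE-C (pairings 0.03 to 0.22), while the standard-cage pools overlapped, 0.048 in C-DE/C-C (pairings −0.052 to 0.15). On a second passing probe it was the other way round: the standard-cage pools did not overlap, 0.14 (pairings 0.081 to 0.21), and the enriched ones did, 0.24 (pairings −0.13 to 0.61). Unc5a, another of the Unc5 receptors, had values of 2.04 and 2.07 in C-C, 1.93 and 1.95 in C-DE, 2.02 and 2.05 in EE-C, and 1.96 and 2.01 in EE-DE. It was lower with DE in both housings, with −0.11 and −0.052. Unc5b had values of 1.04 and 1.13 in C-C, 1.06 and 1.08 in C-DE, 1.01 and 0.94 in EE-C, and 1.15 and 1.11 in EE-DE. Its rearing difference was −0.11 in EE-C/C-C (pairings −0.18 to −0.033) and 0.057 in EE-DE/C-DE (pairings 0.032 to 0.082), of opposite sign.

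For Dcc, the attractive netrin receptor, the placement of the probe matters. The brightest probe under this name gave 7.47 and 7.23 in C-C, 7.12 and 7.25 in C-DE, 6.88 and 6.94 in EE-C, and 6.96 and 7.05 in EE-DE. The enriched pools were below the standard ones, −0.44 in EE-C/C-C (pairings −0.59 to −0.28) and −0.18 in EE-DE/C-DE (pairings −0.30 to −0.068). The array annotation placed this probe on chromosome 7, whereas the RefSeq table placed Dcc on chromosome 18. The passing probe that lies on chromosome 18 gave −3.93 and −3.64 in C-C, −3.86 and −4.02 in C-DE, −4.19 and −3.85 in EE-C, and −3.98 and −3.67 in EE-DE, with −0.23 in EE-C/C-C (pairings −0.55 to 0.084) and 0.12 in EE-DE/C-DE (pairings −0.12 to 0.35). Its pools overlapped in both comparisons, and it differed by −0.16 in C-DE/C-C and 0.19 with enrichment (EE-DE/EE-C). What the probe on chromosome 7 read was not determined, so the values printed for Dcc in the ranges, medians and counts are those of the probe under this name and may not be of Dcc transcript.

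Unc5d, the remaining netrin receptor, was well above background only on the second EE-C and the second EE-DE array. Its intensities were 3.1 and 6.5 in C-C, 6.4 and 6.7 in C-DE, 7.0 and 12.4 in EE-C, and 14.4 and 12.2 in EE-DE. C-C and C-DE were set at the lowest signal well above background on their arrays. Against these floors the second EE-DE array was 1.27-fold above C-C and 1.32-fold above C-DE, and the second EE-C array 1.25-fold above C-C. The mean of both EE-DE arrays, 1 of them not well above background, gave 1.34-fold and 1.39-fold. That of both EE-C arrays gave 0.97-fold against C-C. The second arrays were picked because Unc5d was detected there. The lowest such signal was itself higher on the second EE-DE array (−5.97) than on the C-C (−6.21 and −6.06) and C-DE arrays (−6.10 and −6.29). The folds are therefore neither measured sizes nor lower bounds, and no rise is read from them. The first EE-DE array, where Unc5d was not well above background, had fewer spots above background than the others (56.7% against 68.0% to 70.6%).

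Across all 98 probes of the members, 92 stood well above background on all 8 arrays, and 85 passed every filter. None of these 85 passed 1.5-fold in any comparison. Of the 92, 2 did: the Ensembl probe of Robo3 and a Sema6a probe with an Ensembl identifier, which gave −4.01 and −3.60 in C-C, −3.76 and −3.62 in C-DE, −4.03 and −2.30 in EE-C, and −3.94 and −3.76 in EE-DE. Its differences, 0.64 in EE-C/C-C and, with DE in enriched housing, −0.68, rest on the second EE-C array. For the 16 members with several passing probes, the median spread between probes of a gene was 0.068 in C-DE/C-C and 0.090 with enrichment (EE-DE/EE-C), larger than the median size of the members' differences in either comparison. The largest spread was that of Ephb6 in EE-DE/C-C, 0.46.

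Members were also compared by their place in the genome. On mm9, 18 members had another member within 1 Mb, in 10 adjacent pairs, of which 4 had the same sign in C-DE/C-C and 5 with enrichment (EE-DE/EE-C). On chromosome 3, Efna3 and Efna4 lie 19.2 kb apart by their probes and differed by 0.37 and −0.20 in EE-DE/C-C and by 0.054 and −0.17 in C-DE/C-C. On chromosome 9, Robo4 and Robo3 are 2.8 kb apart, with C-DE/C-C differences of 0.041 and 0.39, and Sema3b and Sema3f are 83.1 kb apart and differed by 0.36 and −0.039 in EE-C/C-C. On chromosome 16, Robo1 and Robo2 differed by −0.03 and −0.04 in C-DE/C-C. The windows from 250 bases before to 50 after the start, from RefSeq on GRCm38.p6, were found for 58 of the 68 members. The median number of CG dinucleotides was 21 per window, and 19 over the 10835 measured genes with a window.

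Downstream of the receptors, 55 effectors were measured of 56 listed, among them the collapsin response mediators and the kinases and actin regulators that receptors act through. None changed 1.5-fold in any comparison. Their median difference was 0.0085 in C-DE/C-C and 0.015 with enrichment (EE-DE/EE-C). In C-DE/C-C the lowest were Src, a tyrosine kinase, at −0.31, Limk2, a kinase of cofilin, at −0.20 and Mical2, an enzyme that oxidises actin, at −0.18. The highest were Mical3 at 0.28, Dpysl5, a collapsin response mediator, at 0.22 and Vav3, a guanine nucleotide exchange factor, at 0.14. In EE-DE/EE-C the low end held Dpysl4 at −0.14 and Cfl1 (cofilin) at −0.12, and the highest were Mical2 at 0.33, Rock1, a protein kinase, at 0.24 and Ablim1 at 0.17. The values of Mical2 were −1.87 and −1.81 in C-C, −2.04 and −1.99 in C-DE, −2.55 and −2.19 in EE-C, and −2.16 and −1.93 in EE-DE, with the EE-C arrays the lowest.

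Of 36 further guidance and adhesion genes, such as the repulsive guidance molecules, contactins and cell adhesion molecules of axons, 32 were measured. None changed 1.5-fold in any comparison (0.649% to 0.952% of all genes did), with medians of −0.018 in C-DE/C-C and 0.002 with enrichment (EE-DE/EE-C). Against the backgrounds given for the effectors, 2 lay above and 10 below without overlap in C-DE/C-C, and 7 and 6 in EE-DE/EE-C. The counts were 10 and 10 in EE-DE/C-C, 5 and 8 in EE-C/C-C, and 11 and 6 in EE-DE/C-DE. In EE-C/C-C the largest differences of the effectors and of these genes were −0.53 (Mical2) and 0.26 (Flrt2).

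Bulb tissue was present by its markers: all 9 mitral and tufted cell markers and 11 of 12 interneuron and neuroblast markers passed on all arrays, with medians of 0.037 and −0.0007 in C-DE/C-C. Markers of other tissues passed the threshold in some comparisons, and the guidance genes, chosen by symbol, did not. The marker lists hold genes that the paper names as changed on these arrays. These are Cyp2f2, Aqp3, Krt18, Umodl1 and Ugt2a1 of the mucosa, Cnga4 of sensory neurons, and Bglap, Bglap2 and Acp5 of bone. Part of the marker counts was thus fixed by the choice of genes, so no conclusion is drawn from the contrast. Of 12 measured markers of the olfactory mucosa's supporting cells and glands, 10 were at least 1.5-fold lower in C-DE/C-C (median −1.21), 7 higher in EE-DE/EE-C (median 0.67) and 9 higher in EE-DE/C-DE (median 1.60). Of this list, Cyp1a2, Reg3g and Bpifa1 had no passing probe. The summed signal of the measured ones, in units of the 75th percentile, was 9.24 to 16.6 on the C-C arrays, 5.14 to 6.39 in C-DE, 5.62 to 15.6 in EE-C and 12.4 to 19.6 in EE-DE. Of 12 olfactory sensory neuron markers, 4 were lower in C-DE/C-C (median −0.29), 3 higher in EE-DE/EE-C (median 0.16) and 4 higher in EE-DE/C-DE (median 0.39), and their summed signal was 116 to 135, 110 to 122, 127 to 136 and 132 to 134 in the same order. Of 7 bone markers, 2 were lower in C-DE/C-C (median −0.48), with summed signals of 7.55 to 11.5, 5.52 to 8.77, 6.36 to 8.03 and 8.1 to 8.29. Meningeal, red blood cell and oligodendrocyte markers had medians of −0.029, −0.21 and −0.016 in C-DE/C-C and −0.07, −0.038 and 0.041 with enrichment (EE-DE/EE-C). Their part in the members' differences was not tested.

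**Figure D4:**
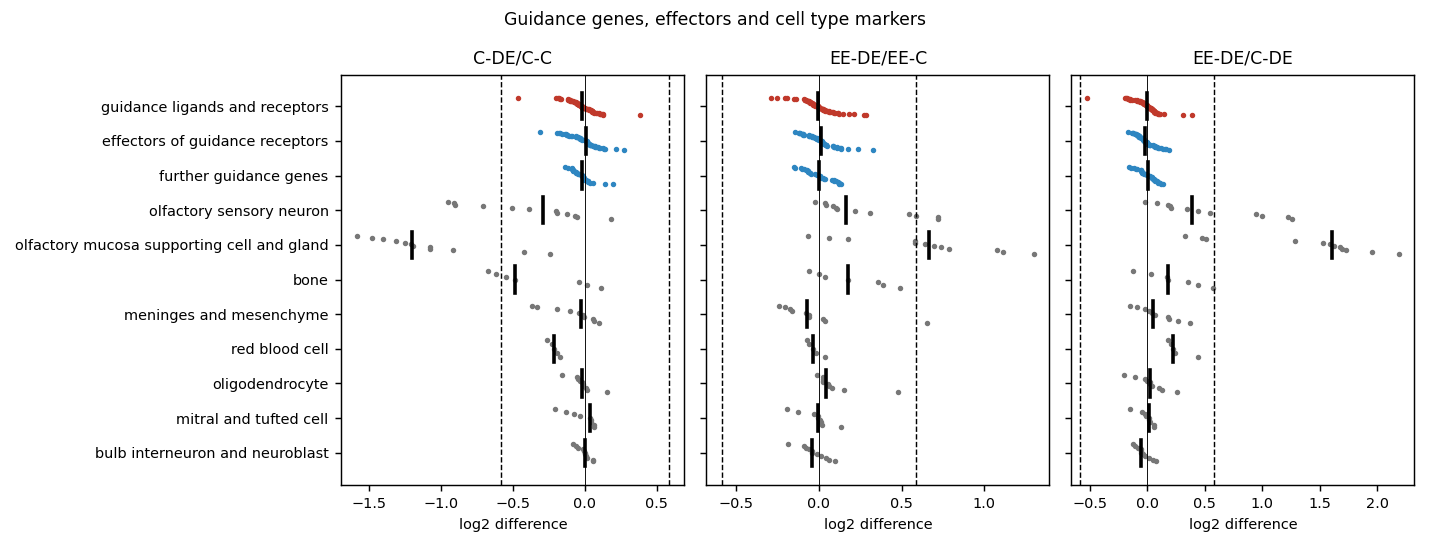
Log2 differences (x axis) of single genes in each list (y axis) in 3 comparisons named above the panels; each dot is a gene, black ticks are list medians and dashed lines 1.5-fold, with a different x range in each panel. Guidance genes, effectors and further guidance genes stay between the dashed lines in all 3 panels. Markers of olfactory mucosa supporting cells and glands pass them, below in C-DE/C-C and above in the other panels. The marker lists hold some genes that the paper names as changed on these arrays.

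The 8 arrays shared 1 slide. The standard-cage pools filled one of its columns and the enriched pools the other, with clean-air pools in the upper rows and exposed pools in the lower ones. Rearing and slide column, and air treatment and slide row, cannot be told apart. On the first EE-C array a corner read low, by up to 1.24 (log2) in blocks of 8 rows and 4 columns, and no spot of a member lay in the blocks that deviated by more than 0.3.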

How the data were processed

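RNA pools of the olfactory bulb were labelled with Cy3 and hybridized to 8 Agilent mouse arrays, 2 for each of 4 pools. The intensity values deposited by the authors are those of the scanner software (Agilent Feature Extraction 10.7.3.1), which subtracted local background within each array and did not scale between arrays. The deposited series table holds log2 values computed by the authors, which matched, for 99.4% of 21709 probes within 0.02 on all arrays, the log2 signal minus the 75th percentile of the array, centred on the probe's median. They served as an alternative. The deposited flags, a yes or no score per spot, were used as filters.

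Processed signals were taken to the log2 scale and set relative to the 75th percentile of the 59305 noncontrol spots of their array, which was 644 to 716 intensity units. Spots were kept with a GenBank or RefSeq accession, well above background on all arrays and without an outlier flag (23956 spots, 21709 probes, 16484 genes). That 56.7% to 70.6% of noncontrol spots were well above background, and the 2 arrays a pool, limit the precision. No spot was saturated. A gene is its brightest passing probe. A difference has its range over 4 pairings of arrays. Each group is 1 pool, so no test was made. Python 3.11.15 with numpy 2.4.6, pandas 2.3.3 and matplotlib 3.10.9 was used, and limma 3.58.1 in R 4.3.3 gave the normexp (offset 50) and quantile values.

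Groups follow the sample labels. The members and gene lists were chosen with earlier results of these data known. Values by array are given for members known from olfactory wiring and, in each comparison, for up to 3 members with the largest positive and 3 with the largest negative difference among those whose pools did not overlap. Epha6, Efnb3, Epha4, Sema4c, Sema4a, Unc5a, Unc5b, Epha10 and the second probes of Sema3a, Nrp2, Ephb6, Efnb2 and Epha7 were named after their values were seen. Chromosomes were checked against RefSeq genes of GRCm38.p6, which named all 68 members. Its coordinates were not used for probe positions or distances, which follow mm9, and the windows around gene starts come from GRCm38.p6. The alternatives were normexp, quantile normalization, scaling by the median of passing spots, the series table, the mean of all passing probes, looser or no filters on dim spots, on accessions and on outliers, 1.5-fold in all 4 pairings, and leaving out each array. After the data were seen, probes placed on another chromosome than their gene were left out as 1 more alternative.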

Additional observations from a re-analysis of the deposited data

Results flagged for a closer look

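Epha1, a dim Eph receptor gene, differed in opposite directions with DE in the 2 housings: its log2 difference was −0.47 between C-DE and C-C and 0.27 between EE-DE and EE-C, without overlap between the arrays of the pools. With the normexp background correction they were −0.15 and 0.21. The second minus the first is 0.74, which is by arithmetic also the gap between the rearing differences in DE (0.39) and in clean air (−0.34). The difference was not tested, since each group is 1 pool.

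Unc5b, a repulsive netrin receptor, was lower with enrichment in clean air (−0.11) and higher with enrichment in DE (0.057), again without overlap. The differences are 0.17 apart, and this was not tested.

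Outside the probes that passed the accession filter, a Robo3 probe with an Ensembl identifier was above its C-C level by 1.16 in C-DE, 1.12 in EE-DE and 0.86 in EE-C, the last resting largely on the second EE-C array (values of −5.06 and −3.84). A Sema6a probe with an Ensembl identifier was above its C-C level by 0.64 in EE-C, on the second EE-C array only.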

How the results depend on the processing

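No paired analysis was possible because each group is 1 RNA pool whose numbered arrays are technical duplicates, and no result comes from a test. Of 75 recomputed counts of members changed 1.5-fold, 65 were 0, as in the report. With the looser filter for a positive and significant signal, and with no filter on dim spots, the count was 1 in every comparison but EE-DE/EE-C. That gene was Unc5d each time, with unfiltered differences of 0.60 for C-DE/C-C, 1.52 for EE-DE/C-C, 1.06 for EE-C/C-C and 0.93 for EE-DE/C-DE. Unc5d was not well above background on any C-C or C-DE array, so these are not measured sizes. Leaving out an array gave counts of 0 to 1 in EE-DE/EE-C (Epha10, without the second EE-C array) and in EE-DE/C-DE (Robo3, without the second EE-DE array), and 0 in the other comparisons.

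The 70 recomputed medians of the members lay between −0.038 and 0.013. Under normexp the median of EE-DE/EE-C was −0.013, that of EE-DE/C-C −0.018 and that of EE-C/C-C −0.013. With the median of passing spots as scale, that of EE-DE/EE-C was −0.017 and that of EE-C/C-C −0.0084, with the series table −0.020 in EE-DE/C-C and −0.011 in EE-C/C-C, with all noncontrol spots −0.020 in EE-DE/C-C, and with the mean of all passing probes −0.031 in EE-C/C-C. When each array was left out, the median of C-DE/C-C ranged from −0.038 to −0.012. That of EE-DE/EE-C ranged from −0.010 to 0.0027, with a change of sign without the first EE-C array. That of EE-DE/C-C ranged from −0.038 to −0.026, that of EE-C/C-C from −0.034 to −0.0014 and that of EE-DE/C-DE from −0.018 to 0.012, on either side of 0. The cause of these shifts was not tested.

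For named genes, 882 differences were recomputed, of which 850 moved by less than the spread over pairings and 1, that of Robo3 in EE-DE/C-DE without the second EE-DE array, passed 1.5-fold. The sign turned in 36 of them. Among the recomputed differences whose pools did not overlap, it turned for Efna4 in EE-DE/C-C under normexp (0.0095) and for Sema3a in C-DE/C-C with the mean of its probes (0.032). It also turned for Dcc in EE-DE/C-DE once its probe of doubtful placement was left out (0.12). Not every comparison of every named gene was recomputed.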
